A study of Mus musculus with 6 samples.

Results

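The EGF receptor family and its ligands were examined in whole embryonic lungs of mice on the C57BL/6 strain at 12.5 *dpc* (days post coitus). The members are the 4 receptors *Egfr*, *Erbb2*, *Erbb3* and *Erbb4* and the 6 ligands *Areg*, *Ereg*, *Hbegf*, *Tgfa*, *Nrg1* and *Btc*. They were found by gene symbol in the authors' table of all loci, where each has 1 locus, which makes 10 of 24402 loci. None of these loci carries a second gene symbol. Control lungs came from wild-type embryos, and *Yap* mutant lungs came from littermates with the genotype *Yap*-flox/flox; *Shh*-Cre/+. In the mutants, Cre recombinase made from the *Shh* locus removes *Yap* from the lung epithelium and leaves it in the mesenchyme, and the same allele takes away 1 working copy of *Shh*. The *Shh*-Cre allele is absent from the wild-type controls, so its own effect and that of the *Yap* deletion cannot be told apart. Each genotype has 3 libraries by the labels, which do not say whether a library is 1 embryo or a pool.

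The ERBB receptors are tyrosine kinases of the cell surface that signal as pairs. EGFR and ERBB4 bind ligand and have an active kinase, ERBB2 has no known ligand and acts as the preferred partner of the others, and ERBB3 binds neuregulins but has a very weak kinase. Amphiregulin (*Areg*) and transforming growth factor alpha (*Tgfa*) bind EGFR, epiregulin (*Ereg*), heparin-binding EGF (*Hbegf*) and betacellulin (*Btc*) bind both EGFR and ERBB4, and neuregulin 1 (*Nrg1*) binds ERBB3 and ERBB4. The ligands are made as membrane proteins and are released by ADAM metalloproteases. In the lung, EGFR and neuregulin signalling are known for their roles in epithelial growth and maturation, and *Areg* is a known YAP target in several epithelia.

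For every locus the deposited table has a single value for each genotype, read here as FPKM (fragments per kilobase of transcript, scaled to the fragments sequenced), which can be compared between genes because it is per length. Such values give neither the spread between libraries nor their depth. The p-values that the authors computed were not used, so no test stands behind the differences below, and their error is not given. The ratio of *Yap* mutant over control is given as log2 of the 2 values after adding 0.1 FPKM to each, and a locus was called when this ratio was at least 1.5-fold in either direction and the mean of both values was at least 1 FPKM. Of 12716 loci that reached this mean, 3.3% were called lower and 4.44% were called higher in *Yap* mutant lungs. The median log2 ratio of these loci was -0.01. *Yap1*, the targeted gene, had 76.1 FPKM in the control and 65.6 FPKM in the *Yap* mutant, a value that covers the whole locus and all cells of the lung. The lung epithelial factor *Nkx2-1* had 61.9 FPKM in control lungs and 35.9 FPKM in mutant lungs, and the lung mesenchyme factor *Tbx4* had 54.3 and 59.2 FPKM, so markers of the labelled tissue were present in both groups. The groups also differed in other markers. The 10 loci of a cardiac muscle list summed to 100.6 FPKM in control lungs against 688 FPKM in the mutants. The 4 Y-linked genes looked at, which are expressed in male embryos, summed to 0.0306 FPKM in the control value and 36.4 FPKM in the mutant value, and *Kdm5d* and *Uty* among them were at 0 in the control. The sex of the embryos therefore differed between the groups, and in every comparison below sex and genotype cannot be told apart.

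To show the receptors' promoters beside their values, the 250 bases before the transcription start are printed for *Egfr* and *Erbb2*. Neither receptor was called, with log2 ratios of -0.47 for *Egfr* and 0.16 for *Erbb2*. The sequences are from RefSeq on build GRCm38.p6, and the set of promoters used here has 6 of the 10 members. For *Erbb4* and *Tgfa* the window lies wholly or partly inside the outer bounds of the RefSeq gene, so it precedes an inner start, and neither is printed. *Egfr* is at chr11:16751953-16752202 and *Erbb2* at chr11:98412234-98412483, both on the plus strand. YAP acts through TEAD factors, so the sequences were searched on both strands for the core TEAD motif GGAATG, shown in capitals. The motif was found in 1 of the 6 members, *Erbb2*, where it begins 88 bases before the start, and in 12.6% of 32851 mouse promoters of the same length. A match of letters is not a binding site, and its absence from this window says nothing about TEAD at these genes.
Egfr: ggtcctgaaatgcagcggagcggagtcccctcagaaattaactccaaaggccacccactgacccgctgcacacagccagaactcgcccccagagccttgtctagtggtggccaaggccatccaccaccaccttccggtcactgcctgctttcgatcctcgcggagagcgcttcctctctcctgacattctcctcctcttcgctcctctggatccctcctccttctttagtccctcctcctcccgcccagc
Erbb2: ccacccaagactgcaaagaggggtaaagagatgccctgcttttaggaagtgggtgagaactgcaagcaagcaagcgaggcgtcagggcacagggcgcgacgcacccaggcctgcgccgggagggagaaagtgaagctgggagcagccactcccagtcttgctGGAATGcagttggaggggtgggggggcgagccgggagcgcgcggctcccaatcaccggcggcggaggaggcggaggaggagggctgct

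Among the receptors, *Erbb2* was the most abundant in both genotypes. It spans chromosome 11 from 98412484 to 98438988 and was listed at 22.5 FPKM in the control and 25.3 FPKM in the *Yap* mutant. The log2 ratio of *Erbb2* was 0.16, a value 12.1% above control. *Erbb3*, the kinase-weak partner that ERBB2 pairs with, spans chromosome 10 from 128567533 to 128589959 and was listed at 12.9 FPKM in control lungs and 9.45 FPKM in mutant lungs. That is 26.7% below control, with a log2 ratio of -0.44. *Egfr*, on chromosome 11 from 16752203 to 16918156, was listed at 5.57 FPKM in control lungs against 4.01 FPKM in the mutants. Its value was 28.1% below control and its log2 ratio was -0.47. *Egfr* and *Erbb3* were thus lower by nearly the same factor, so the ratio of *Erbb3* to *Egfr* FPKM was 2.31 in control and 2.36 in *Yap* mutant lungs. The ratio of *Erbb2* to *Erbb3* FPKM went from 1.75 to 2.67, and that of *Erbb2* to *Egfr* from 4.04 to 6.30. None (0) of these 3 receptors reached 1.5-fold, beside 3.3% of all loci called lower and 4.44% called higher. At a smaller limit of 5/4-fold, 2 members, *Egfr* and *Erbb3*, would be counted as lower.

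*Erbb4* had the largest log2 ratio, in size, of the 10 members, while in FPKM its difference was smaller than that of *Erbb2*, *Erbb3* and *Egfr*. Its locus on chromosome 1, from 68039738 to 69108059, was listed at 0.200 FPKM in the control and 1.56 FPKM in the *Yap* mutant. This is a 7.81-fold ratio of the values as listed and a log2 ratio of 2.47 with 0.1 FPKM added. With 1 FPKM added the log2 ratio was 1.09 and with 0.01 FPKM added it was 2.90, so the size depends on the pseudocount and the direction does not. Its mean of 0.881 FPKM is under the minimum of 1 FPKM, so *Erbb4* is not among the called loci. With no minimum mean it would be called higher, together with 8.02% of 19376 loci, while 5.24% would be called lower. With a minimum of 1 FPKM in either genotype, which *Erbb4* meets only through the genotype where it is high, 5.25% of 13062 loci were called higher and 3.85% lower.

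**Figure D1:**
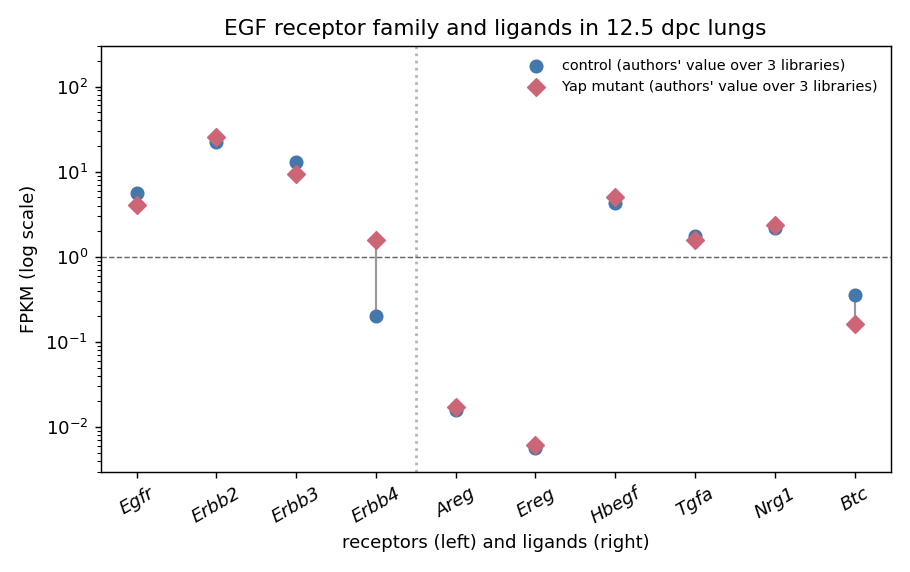
FPKM of the 10 members (log axis) in control lungs (circles) and *Yap* mutant lungs (diamonds), each the authors' single value over 3 libraries, with a dashed line at 1 FPKM. *Erbb4* is at 0.200 and 1.56 FPKM, on either side of the line, while *Areg* and *Ereg* lie under 0.02 FPKM in both genotypes.

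ERBB4 is known as a neuregulin receptor of heart muscle, where it signals together with ERBB2. All 10 loci of the cardiac muscle list were called higher in the mutants, and their median log2 ratio was 3.05. In control lungs the most abundant were *Myl7*, an atrial myosin light chain gene, and *Actc1*, the cardiac actin gene. *Actc1* had 38.0 FPKM in control lungs and 96.1 FPKM in mutant lungs. For *Myl7* the table of all loci lists 39.3 and 306 FPKM, and the shorter deposited table lists 87.8 FPKM for *Yap* mutant lungs. The summed level of the list was 6.84 times the control level with the first of these values and 4.67 times with the second. None (0) of the 10 cardiac loci was at 0 in either genotype, with a lowest value of 0.316 FPKM in control lungs. The part of heart muscle in the *Erbb4* value was not tested. In a liver list of 6 loci, 4 had a mean of at least 1 FPKM, and 3 of these, *Afp*, *Ttr* and *Apoa1*, were called higher. *Alb*, the albumin gene, had 1.28 and 1.14 FPKM, and *Serpina1a* and *Ahsg* were under 0.2 FPKM in both genotypes. The summed level of the liver list was 8.69 FPKM in control lungs against 40.7 FPKM in the mutants.

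*Egfr* and *Erbb3* can be read beside markers of the epithelium, where these receptors are known to be expressed. Of the 23 loci of an epithelium list, 19 had a lower and 4 a higher value in the mutants, with 10 called lower and 1 called higher. Over all loci, 3.3% were called lower and 4.44% higher. The median log2 ratio of the epithelium list was -0.54, within a wide range from -2.71 to 0.97. Its summed level was 645 FPKM in the control and 504 FPKM in the *Yap* mutant. Its most abundant markers, the claudin gene *Cldn6*, the protease inhibitor gene *Spint2* and the adhesion gene *Epcam*, had log2 ratios of -0.60, -0.08 and -0.43. Relative to the median of the list, the log2 ratios of *Egfr* and *Erbb3* were 0.070 and 0.092, and that of *Erbb2* was 0.70. In RNA from whole lungs, fewer cells of a type and less RNA per cell cannot be told apart. The part of the epithelium in the values of *Egfr* and *Erbb3* was not tested.

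*Erbb3* is also known as a receptor of neural crest glia. In a glial list of 6 loci, the 4 with a mean of at least 1 FPKM had a median log2 ratio of -0.27, and the summed level went from 48.5 to 31.1 FPKM. That sum was made up mostly of *Ednrb*, with 36.1 FPKM in control lungs and 20.0 FPKM in mutant lungs, and the glial factor *Sox10* had 2.96 and 2.32 FPKM. In a list of 9 neuronal loci, the 7 with a mean of at least 1 FPKM had a median of -0.61, and 4 of them were called lower. The smooth muscle list had a median of -1.06, with 5 loci called lower and 1 called higher. The medians of the mesenchyme, endothelium, mesothelium, macrophage and erythroid lists were 0.05, 0.17, 0.31, 0.14 and 0.11. The mesenchyme list was not uniform, with log2 ratios from -1.82 to 1.34. Of its 16 loci, 4 were called lower and 1 was called higher. In the endothelium, mesothelium, macrophage and erythroid lists, 1 erythroid locus was called higher and none (0) lower. Over all loci, 3.3% were called lower and 4.44% higher. The part of these cell types in the members' values was not tested.

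**Figure D2:**
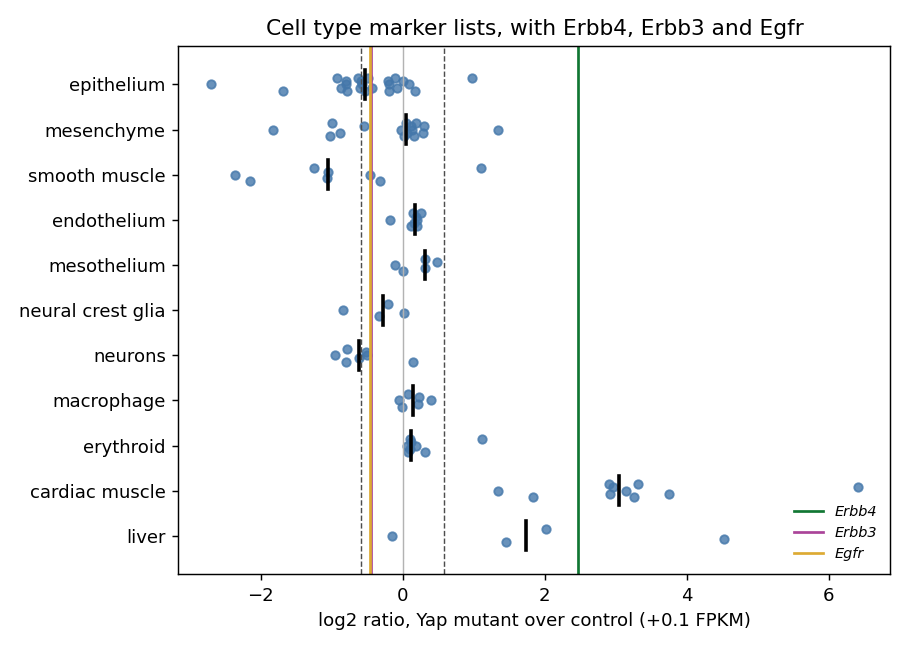
Log2 ratio of *Yap* mutant over control FPKM for each marker locus that averages 1 FPKM or more (points), with the median of each list (black bars), the 1.5-fold limits (dashed) and the values of *Erbb4*, *Erbb3* and *Egfr* (coloured lines). *Egfr* and *Erbb3*, at -0.47 and -0.44, lie near the epithelium median of -0.54 and between the neuronal and glial medians of -0.61 and -0.27. The epithelium loci run from -2.71 to 0.97. *Erbb4*, at 2.47, lies within the range of the cardiac muscle loci and within that of the liver loci.

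The summed FPKM of the 4 receptors was nearly the same in both genotypes, at 41.2 in control and 40.3 in *Yap* mutant lungs, but its make-up differed. *Erbb2* made up 54.7% of the control sum and 62.7% of the *Yap* mutant sum. The share of *Erbb3* was 31.3% in control and 23.5% in *Yap* mutant lungs, and that of *Egfr* was 13.5% and 9.96%. *Erbb4* went from 0.486% to 3.88%. The order by level was *Erbb2*, *Erbb3*, *Egfr* and *Erbb4* in both genotypes. Since the spread between libraries is unknown, whether neighbours in this order differ beyond it cannot be said, and the smallest step between neighbours was the 1.75-fold one between *Erbb2* and *Erbb3* in control lungs and the 2.36-fold one between *Erbb3* and *Egfr* in *Yap* mutant lungs. Over the 4 receptors the median log2 ratio was -0.14, and over the 3 with a mean of at least 1 FPKM it was -0.44.

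**Figure D3:**
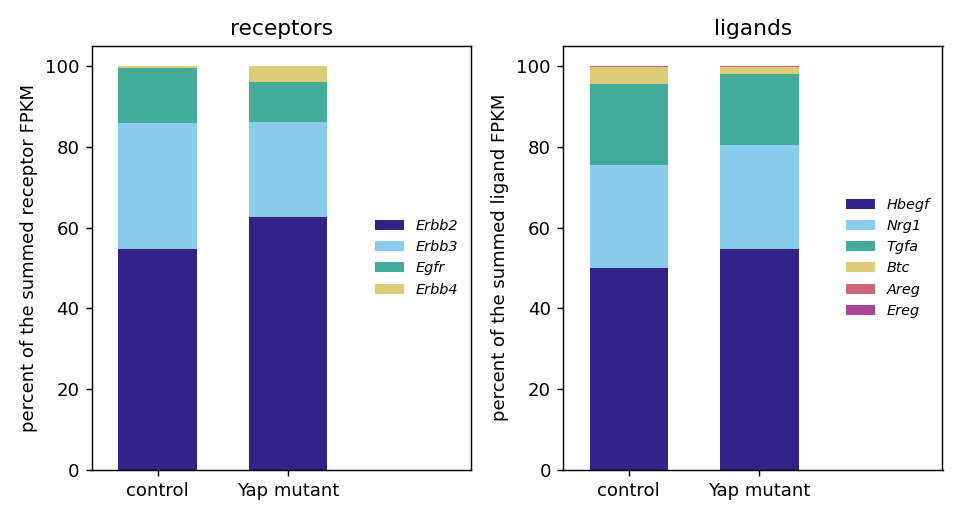
Share of each receptor in the summed receptor FPKM (left) and of each ligand in the summed ligand FPKM (right), in control and *Yap* mutant lungs, with 1 value per genotype. *Erbb2* makes up 54.7% and 62.7% of the receptor sum, and *Hbegf* makes up 50.1% and 54.6% of the ligand sum.

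The 6 ligands summed to less than the 4 receptors, at 8.63 FPKM in control lungs against 9.12 FPKM in the mutants. *Hbegf*, the membrane-anchored ligand that binds heparan sulphate, lies on chromosome 18 from 36504927 to 36515805 and was the most abundant, at 4.32 and 4.98 FPKM. Its log2 ratio was 0.20. *Nrg1*, which binds ERBB3 and ERBB4, had 2.20 FPKM in the control and 2.36 FPKM in the *Yap* mutant, a log2 ratio of 0.10. *Tgfa*, on chromosome 6 from 86195251 to 86275540, was listed at 1.74 FPKM in control lungs and 1.59 FPKM in mutant lungs, a log2 ratio of -0.12. These 3 ligands had a mean of at least 1 FPKM, and none (0) of them was called. Of all loci with this mean, 3.3% were called lower and 4.44% were called higher.

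The table's locus for *Nrg1*, on chromosome 8 from 31814760 to 32009530, covers 18.0% of the RefSeq gene, which runs from 31807452 to 32891609. Of 12 coding *Nrg1* transcripts in GENCODE M21, 2 start more than 1 kb outside this locus, up to 874 kb away. *Nrg1* is known to be transcribed from several promoters, and transcripts from the far ones may be counted in part or not at all in its value. For the other 9 members, the locus covered at least 99.2% of the RefSeq gene and no coding transcript started more than 1 kb outside it.

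*Btc*, *Areg* and *Ereg* were under 1 FPKM in both genotypes. *Btc* had 0.352 FPKM in control lungs against 0.162 FPKM in the mutants, which is 54.0% lower as listed and a log2 ratio of -0.79 with 0.1 FPKM added. With 1 FPKM added the log2 ratio of *Btc* was -0.22. *Areg*, the YAP target of other epithelia, had 0.0159 FPKM in the control and 0.0171 FPKM in the *Yap* mutant, and *Ereg* had 0.00566 and 0.00623 FPKM. How many fragments stand behind the values of *Areg* and *Ereg* is unknown, so no difference is read from them. The genes for *Epgn*, *Ereg*, *Areg* and *Btc* lie in a cluster on chromosome 5 from 91027517 to 91402994, a span of 375 kb. *Epgn* (epigen), which is not a member, had 0.0848 FPKM in control lungs and 0.104 FPKM in mutant lungs, so the highest value of any ligand in this cluster was that of *Btc* in control lungs. The 3 ligands with a mean of at least 1 FPKM lie outside it.

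**Figure D4:**
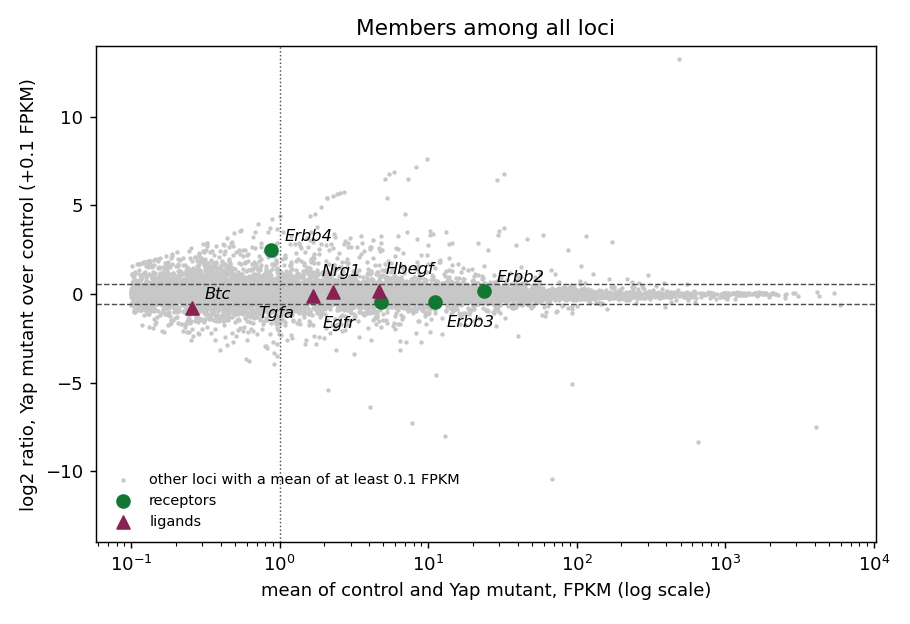
Log2 ratio of *Yap* mutant over control FPKM, with 0.1 FPKM added, against the mean of both values (log axis) for loci whose mean was at least 0.1 FPKM, with receptors (circles) and ligands (triangles) marked. The dashed lines are the 1.5-fold limits and the dotted line is the minimum mean of 1 FPKM. The 6 members right of that line lie between the limits, and *Erbb4*, left of it, lies at 2.47. *Areg* and *Ereg* are too low to be shown.

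Of the 5 other ligands of the family, *Nrg2* was the 1 with a mean of at least 1 FPKM. *Nrg2* encodes neuregulin 2, which binds ERBB3 and ERBB4, and had 4.18 FPKM in control lungs against 1.40 FPKM in the mutants. Its log2 ratio was -1.51, so it was called lower. In control lungs it stood close to *Hbegf* in level, and in *Yap* mutant lungs it was below *Tgfa*. The other four were low. *Egf* had 0.389 FPKM in the control and 0.808 FPKM in the *Yap* mutant, a log2 ratio of 0.89 under the minimum mean. *Nrg4* had 0.462 and 0.499 FPKM, and *Nrg3* had 0.0313 and 0.0266 FPKM.

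The lists of other pathway genes held 88 genes with 89 loci, of which 77 had a mean of at least 1 FPKM. Of these 77 loci, 5 were called lower and 4 were called higher, which is 6.49% and 5.19% beside 3.3% and 4.44% of all loci. The list for ligand release, which also holds the metalloprotease inhibitor gene *Timp3*, has 12 loci, 2 of them *Adam12*. Of these, 10 had a mean of at least 1 FPKM and none (0) was called, with log2 ratios from -0.19 to 0.35. The main sheddase gene *Adam17* had 20.8 FPKM in control lungs and 20.7 FPKM in mutant lungs, and *Adam10* had 52.5 and 64.8 FPKM.

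Among the genes that restrain the receptors, 14 of 15 loci had a mean of at least 1 FPKM. Of these 14 loci, 2 were called lower and none (0) higher, beside 3.3% and 4.44% of all loci. The median log2 ratio was 0.01. *Ptprj*, a receptor-type phosphatase gene, had 3.64 FPKM in control lungs against 1.98 FPKM in the mutants, a log2 ratio of -0.85. *Sh3gl2*, which encodes an endophilin of receptor uptake, had 2.12 and 1.32 FPKM and a log2 ratio of -0.64. With 1 FPKM added to each value *Sh3gl2* was no longer called. The feedback inhibitor gene *Errfi1* had 19.1 FPKM in the control and 26.8 FPKM in the *Yap* mutant, and *Lrig1*, another restraint on the ERBB receptors, had 8.55 and 6.42 FPKM. Neither reached 1.5-fold, with log2 ratios of 0.49 and -0.41, and both were named after their values were seen.

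Most adaptor and effector genes differed little, with a median log2 ratio of -0.02 over 21 loci. *Eps8*, an EGF receptor substrate that links to the actin cytoskeleton, was called higher, with 5.36 FPKM in control lungs and 9.89 FPKM in mutant lungs and a log2 ratio of 0.87. In the RAS and ERK cascade none (0) of 12 loci was called, and the median log2 ratio was -0.0061.

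The early response and feedback genes of ERK signalling serve FGF and other receptors as well as the ERBB family. Of their 24 loci, 19 had a mean of at least 1 FPKM. Among these 19 loci, 15 were higher and 4 lower, with a median log2 ratio of 0.29, beside -0.01 over all loci with this mean. Of the 19 loci, 3 were called higher and 2 lower, beside 4.44% and 3.3% of all loci. The 3 called higher were as follows. *Dusp5* and *Dusp6*, phosphatase genes of the ERK feedback, had log2 ratios of 0.85 and 0.60, and the ETS factor gene *Etv4* had 0.69. With 1 FPKM added *Dusp6* was no longer called. Called lower were 2 loci, the ETS factor gene *Etv5*, with 86.9 FPKM in control lungs against 36.3 FPKM in the mutants and a log2 ratio of -1.26, and *Jun*, with 36.4 and 21.2 FPKM and a log2 ratio of -0.77. *Etv4* and *Etv5*, close relatives that are often used together as readouts of the cascade, thus differed in opposite directions.

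**Figure D5:**
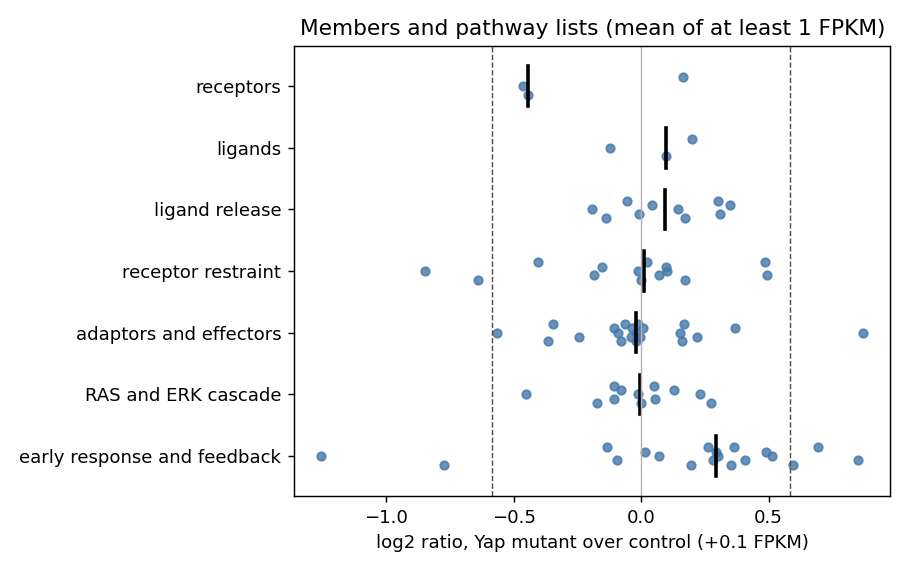
Log2 ratio of *Yap* mutant over control FPKM for each locus that averages 1 FPKM or more (points) of the receptors, the ligands and 5 pathway lists, with the median of each list (black bars) and the 1.5-fold limits (dashed). The early response list has the highest median, 0.29, and holds both the lowest value shown, -1.26 (*Etv5*), and 3 loci beyond the upper limit.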

How the data were processed

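RNA of whole lungs from 3 wild-type and 3 *Yap* mutant samples was made into strand-specific paired-end libraries and sequenced on HiSeq instruments, and the authors analysed the reads on the Maverix platform. The submitters' processing notes name TopHat, Cuffdiff and mm10, but the sources used here give neither their versions nor the annotation. The authors deposited 1 FPKM value per genotype and locus, summarised over the libraries. The unit is read from the Cuffdiff layout of the tables, which do not name it. The 2 values per locus allow no measure of likeness between genes. The 2 tables also hold the authors' fold changes and p-values, which were not used. Values per library and depth are not used here, so no test across libraries was made.

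Computed here were log2 ratios with 0.1 FPKM added, calls at 1.5-fold with a mean of at least 1 FPKM, list counts and medians, and shares of sums, with Python 3.11.15, numpy 2.4.6, pandas 2.3.3 and matplotlib 3.10.9. How often the fold rule errs in these data was not tested, because the spread between libraries is unknown. Named are all members, the other ligands, pathway genes that were called, the leading markers, and the *Yap1*, *Tbx4*, *Sox10* and uncalled pathway genes, chosen after their values were seen. The members and lists were chosen with earlier results of these data known. Listed starts count from 0 (with 1 added, 9308 loci start at the RefSeq gene of that symbol, and 617 without), so 1 was added. The alternatives were other pseudocounts, minimum means, folds, scalings and centrings, loci with 1 symbol, and the shorter table's values at 12 loci that differ by over 1%, none (0) of them members. Of the listed genes, 2 were found under an older symbol.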

Additional observations from a re-analysis of the deposited data

How the results depend on the processing

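No paired analysis was possible because the tables give 1 value per genotype, and for the same reason no library could be left out. Adding 1 or 0.01 FPKM, equal totals, centring on all loci, leaving out loci with several symbols and the shorter table's values kept the counts over all loci and over the pathway lists together within 1.5 times, and the members' count at 0 in both directions. With 1 FPKM added the restraint list lost 1 of its 2 lower calls (*Sh3gl2*) and the early response list 1 of its 3 higher calls (*Dusp6*). The members' calls depend on the minimum and on the reference. With no minimum mean 1 member was higher (*Erbb4*) and 1 lower (*Btc*), and with the 2 minimums added after the data were seen, 1 FPKM in either genotype or a mean of at least 0.5 FPKM, 1 was higher. Relative to the epithelium median 3 members were called higher (*Erbb2*, *Hbegf* and *Nrg1*), the receptor median was 0.092 and the ligand median 0.64. That setting shifts every locus by the same amount, giving 4673 loci called higher and 119 lower, and 36 higher and 2 lower in the pathway lists. At 5/4-fold 2 members were lower, 1225 loci were higher and 865 lower, with 13 and 10 in the pathway lists. At 2-fold 274 loci were higher and 163 lower, with 0 and 2 in the pathway lists. With no minimum mean 1553 loci were higher and 1016 lower, and 217 and 182 at a minimum mean of 5 FPKM, with 2 lower in the pathway lists. Of the settings, 5 can alter a member's log2 ratio. Of the 50 ratios these gave, 42 kept their sign and their side of the 1.5-fold limit and 8 did not. With 1 FPKM added that was *Btc*. The other 7 arose relative to the epithelium median, where *Egfr*, *Erbb3* and *Tgfa* had ratios above 0. The tables give no depth, so what depth limits could not be assessed.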
